A study of Mus musculus with 18 samples.

Results

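Gene expression 34 h after dexamethasone was compared with that 30 h after it, in 3 arrays of each time, which are 6 of the 18 arrays of a time course of wild type mouse embryonic fibroblasts. Per the labels both groups held the same cells and treatment and differed in the time of harvest. Whether the samples of a time were also prepared or put on arrays together was not tested. The cells were fibroblast cultures from C57BL/6 embryos taken at embryonic day 13, with head and liver removed; per the labels they came from 2 mice and carried wild type Bmal1, the cells with and without Bmal1 having been taken from sibling animals. All cultures had received 100 nM dexamethasone, a synthetic glucocorticoid that sets the clocks of cultured cells to a common phase, for 2 h. The labels describe the growth medium in differing ways. They call the 3 samples of a time biological replicates without saying whether these were separate cultures, so a p-value here weighs a difference against the spread among these samples only, which may be technical. The whole course ran over 22, 26, 30, 34, 40 and 46 h. Across the arrays, 19938 genes were measured on a log2 scale of intensity.

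The circadian clock of a mammalian cell is a feedback loop in which BMAL1 and CLOCK activate genes through E-box elements, among them the Per and Cry repressors and the D-box factors Dbp, Tef and Hlf. The nuclear receptors REV-ERB alpha and beta (Nr1d1 and Nr1d2) and the ROR receptors close a further loop on Arntl, which encodes BMAL1. Small nucleolar RNAs of the box H/ACA and box C/D classes guide pseudouridylation and methylation of ribosomal RNA, or take part in its cleavage, and most are cut from introns of host transcripts. The endoplasmic reticulum of a fibroblast folds and exports matrix proteins, and the transcription factor XBP1 raises the expression of its chaperones when folding demand is high.

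The median deposited intensity lay between 196 and 202 on the arrays of 30 and 34 h, against 196 to 210 over all 18 arrays. With 3 arrays a time, their number sets how precise each value can be. The largest component of the spread within times held 33.8% of it; replicate 3 of 30 h (0.27) and replicate 1 of 34 h (0.22) stood opposite to the other 4 arrays (-0.17 to -0.11). Fibroblast markers were bright at both times: the median of 15 marker genes was 11.73 to 11.78 on the arrays of 30 h and 11.66 to 11.79 on those of 34 h. On the arrays of 30 and 34 h the median of every other marker list (adipocyte, skeletal muscle, bone and cartilage, macrophage, endothelium, epithelium, neural and erythroid) lay between 6.71 and 7.68, below the median of 8.07 over all genes. Some of these dim medians were nevertheless higher at 34 h without overlap. That of 10 adipocyte markers was 6.77 to 6.81 and then 6.86 to 6.98, and that of 10 bone and cartilage markers 6.98 to 7.04 and then 7.14 to 7.31. The macrophage, endothelium and epithelium medians also did not overlap (7.09 to 7.14 and then 7.18 to 7.22, 6.79 to 6.81 and then 6.83 to 6.95, 7.23 to 7.32 and then 7.33 to 7.43). Among single genes 9.4% lay wholly higher at 34 h, and no such share was taken for medians of lists. What part these shifts of markers had in the results below was not tested.

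Between 30 h and 34 h, 18 genes differed by limma's test with Benjamini-Hochberg adjustment over all genes (adjusted p under 0.05), which is 0.0903% of those tested. Most of them were small non-coding RNAs that fell. In all 15 genes were lower at 34 h (0.0752%) and 3 were higher (0.015%). The 15 were 8 box H/ACA RNAs, the box C/D RNA Snord35b, the spliceosomal RNA Rnu5g, the vault RNA Vaultrc5, the clock genes Per3 and Tef, the microRNA gene Mir496a and the olfactory receptor gene Olfr1443. The 3 were Sdf2l1, Xbp1 and Kdelr3, all of the secretory pathway. Changes of the called genes ranged from 0.27 to 1.76 log2 in size, with a median of 0.76; only 4 reached 2-fold. Over all genes the median change was 0.01 log2 and its standard deviation 0.10. A positive change was found in 53.4% of all genes. The 3 arrays of 34 h lay wholly above those of 30 h in 1875 genes (9.4%) and wholly below them in 1428 (7.16%), and all 18 called genes were among these. At an unadjusted p under 0.05, 1937 genes differed (9.72%), 1309 higher (6.57%) and 628 lower (3.15%). The spread was estimated over all 18 arrays; from the 6 arrays alone no gene passed (smallest adjusted p = 0.119, 2054 at an unadjusted p under 0.05, limma). Without the small RNA genes, an alternative chosen after seeing the data, no gene passed either (smallest adjusted p = 0.12, 1901 at an unadjusted p under 0.05), so the calls of the other genes rest on an adjustment over a table that holds the small RNAs.

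**Figure D1:**
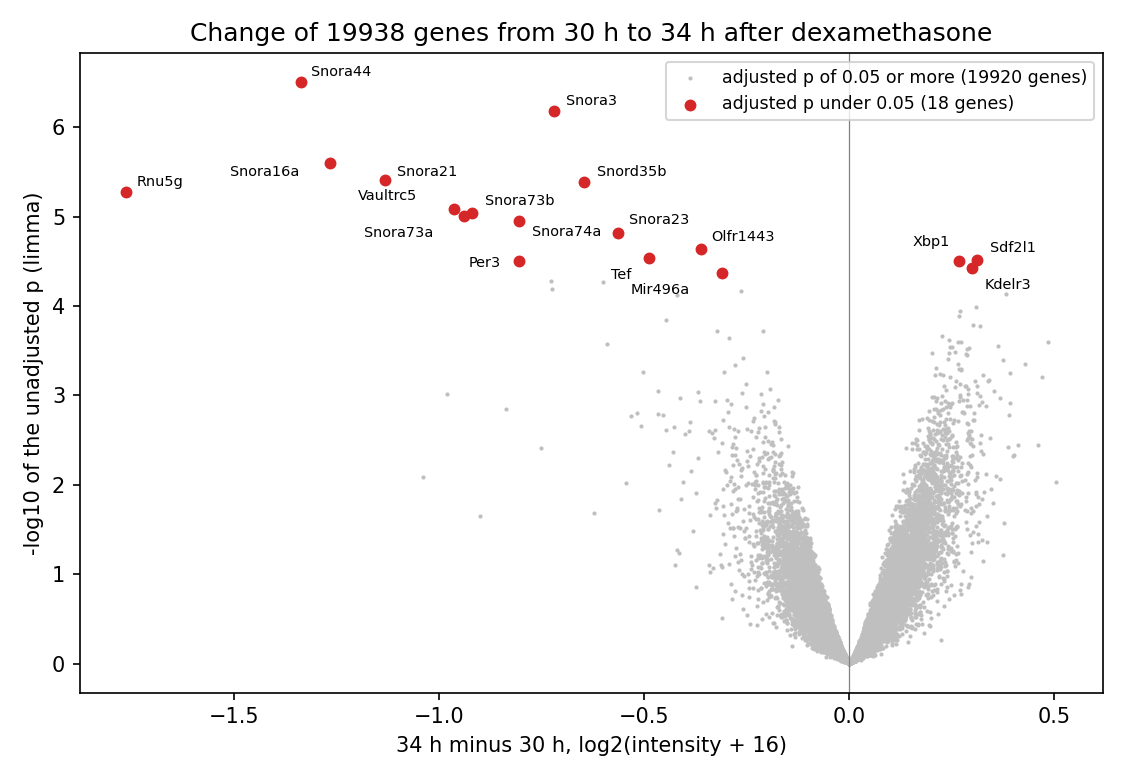
Change from 30 h to 34 h (x axis, log2(intensity + 16)) against the negative log10 of the unadjusted limma p (y axis) for 19938 genes; red points are the 18 genes with an adjusted p under 0.05. The called falls reach -1.76 (Rnu5g) while the 3 called rises lie between 0.27 and 0.31.

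Small nucleolar and spliceosomal RNAs, with a few other small RNAs on their list, were lower at 34 h as a group. The others include Rny1, Rny3, Rmrp, Rpph1 and Rn7sk. Of 64 measured in the whole list, 10 fell, none rose, and 56 had a negative change. Over all genes 0.0752% were called lower and 53.4% had a positive change. Their median was -0.26 log2, against 0.01 over all genes. At an unadjusted p under 0.05, 34 were lower and 2 higher, against 3.15% and 6.57% of all genes. On 33 the arrays of 34 h lay wholly below those of 30 h, against 7.16% of all genes. The median over the 64 genes was 9.11, 8.90 and 8.99 on the arrays of 30 h and 8.61, 8.63 and 8.64 on those of 34 h. These 2 groups of medians did not overlap. Over the box H/ACA genes alone the medians spread more, at 9.75, 9.56 and 9.35 on replicates 1 to 3 of 30 h. On those of 34 h they were 8.40, 8.63 and 8.88. Small RNAs can thus shift together on an array, so these counts are not counts of independent genes. In RNA from whole cultures, fewer cells of a type and less RNA per cell cannot be told apart.

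The smallest p of the comparison belonged to Snora44, a box H/ACA RNA (probe set 10508721). Its level was 10.13, 9.55 and 9.37 at 30 h and 8.04, 8.34 and 8.65 at 34 h. The groups stood well apart, with replicate 1 the highest at 30 h and the lowest at 34 h. The change was -1.34 ± 0.17 (SE, n = 3 and 3) log2, or 0.396-fold (adjusted p = 0.00619, limma). Snora16a, which lies with Snora44 inside the host gene Snhg12, was at 10.38, 10.23 and 9.83 and then at 8.62, 8.61 and 9.41. It fell by 1.27 on the log2 scale (adjusted p = 0.0164, limma), and replicate 3 of 34 h stood above the other arrays of that time. Snora3 was at 10.34, 10.45 and 10.39 at 30 h and at 9.52, 9.72 and 9.78 at 34 h. With a smaller spread than Snora44 it fell by 0.72 on the log2 scale (adjusted p = 0.00651, limma). Snora44 and Snora3 passed the test with any of the 6 arrays left out, though not when only these 6 arrays were fitted.

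Snora73a, an H/ACA RNA that acts in ribosomal RNA processing, was at 11.66, 11.83 and 11.67 at 30 h and at 10.29, 10.91 and 11.15 at 34 h. The groups did not overlap, and replicate 1 of 34 h was the lowest array. Its change was -0.94 ± 0.15 (SE) log2 (adjusted p = 0.0217, limma). Snora73b, its close copy in the same host gene Snhg3, was at 11.61, 11.79 and 11.64 and then at 10.32, 10.86 and 11.11; the arrays may not tell these copies apart. Snora21, Snora74a, Snora23 and Snord35b fell by 1.13, 0.80, 0.56 and 0.65 on the log2 scale, with adjusted p between 0.0164 and 0.0272 (limma). Rnu5g, a U5 RNA of the spliceosome, showed the largest change: 8.94, 8.0 and 8.28 at 30 h and 6.68, 5.93 and 7.33 at 34 h. Its arrays of each time were spread widely but did not overlap, and the change was -1.76 ± 0.27 (SE) log2, or 0.295-fold (adjusted p = 0.0175, limma).

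Leaving out 1 array ended many of these calls without turning a direction. Snora73b and Snora23 lost the call without 5 of the 6 arrays, Snora16a, Snora73a, Snora74a and Vaultrc5 without 4, and Rnu5g, Snora21 and Snord35b without 3. Without replicate 1 of 30 h, and without replicate 2 of 34 h, 2 genes passed in the whole comparison. It was 4 without replicate 2 of 30 h or replicate 1 of 34 h, 12 without replicate 3 of 30 h and 13 without replicate 3 of 34 h.

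**Figure D2:**
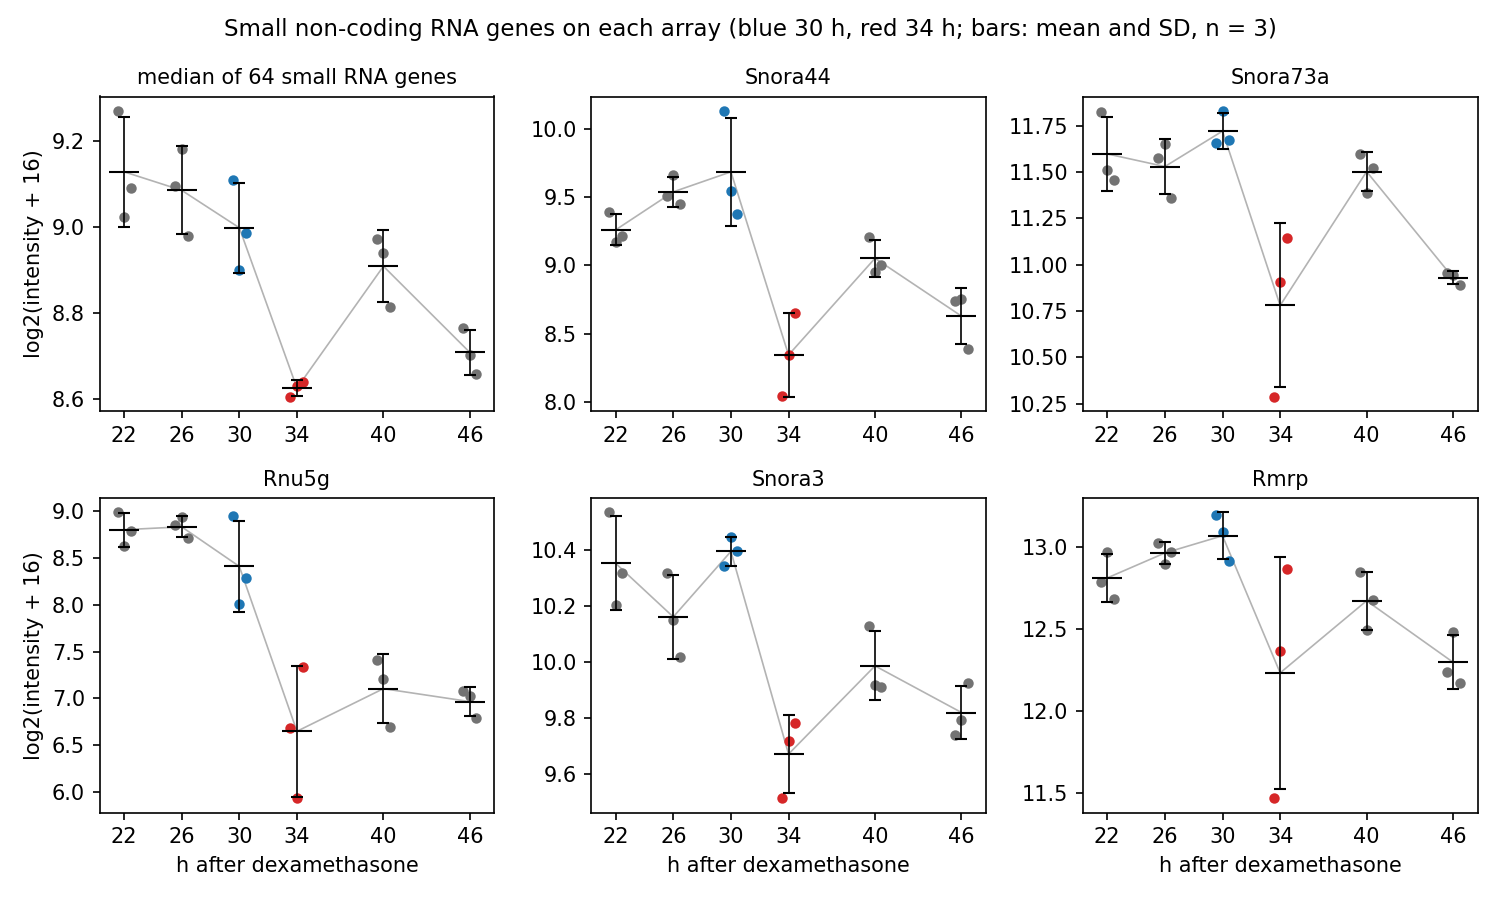
Levels (y axis, log2(intensity + 16)) at 22 to 46 h after dexamethasone (x axis) of the median over 64 small RNA genes and of 5 single genes; each point is 1 array, blue at 30 h and red at 34 h, and the bars are the mean and SD of 3 arrays. In each panel the mean is lowest at 34 h, and in Rmrp the 3 arrays of 34 h spread from 11.47 to 12.87.

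The classes of small RNA differed in their counts. Over all genes 0.0752% were called lower, and 3.15% were lower and 6.57% higher at an unadjusted p under 0.05. All 20 box H/ACA genes had a negative change, 17 of them at an unadjusted p under 0.05 and 8 called, with a median of -0.44. Of 31 box C/D genes, 25 were negative, 8 lower and 2 higher at that p, and 1 called, with a median of -0.09. The 2 higher were Snord82 (0.41 ± 0.12) and Snord57 (0.28 ± 0.10), neither of which passed (adjusted p = 0.263 and 0.327, limma). Snord118, which is the processing RNA U8, was lower by -0.73 without passing (adjusted p = 0.0611), as was Snord15b (-0.73, adjusted p = 0.0532). A list of only some of the RNAs transcribed by RNA polymerase III overlaps the 64. Rny1, Rny3, Rmrp, Rpph1 and Rn7sk are in both, and Vaultrc5 is in this list only. The 6 measured genes of this list all had a negative change, 5 of them at an unadjusted p under 0.05, with a median of -0.56. U6 (Rnu6), another transcript of that polymerase, stands among the spliceosomal RNAs and differed by 0.06 ± 0.12. Its mean level was 4.39, near the floor of 4 that the added constant sets, so a fall could hardly show. Vaultrc5, a vault RNA, fell by 0.96 on the log2 scale (adjusted p = 0.0217, limma). It was at 8.08, 7.86 and 7.82 at 30 h and at 6.52, 7.09 and 7.25 at 34 h. Rmrp, the RNA of the RNase MRP particle, was at 13.20, 13.09 and 12.92 and then at 11.47, 12.36 and 12.87; these did not overlap, but the spread at 34 h was wide and the change of -0.84 did not pass (adjusted p = 0.22). Rn7sk, an inhibitor of transcription elongation, differed by -0.09 ± 0.04 at a mean level of 13.73. Its 3 arrays of 46 h had the same value of 13.74, and whether a ceiling limited its change was not tested. These class lists were drawn up after the values had been seen.

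The RefSeq length of the gene, a property chosen after seeing the data, ran with the size of the change. The 35 genes over 100 bases, Vaultrc5 included, had a median change of -0.56. At an unadjusted p under 0.05, 31 of them differed, against 9.72% of all genes. The 30 genes of at most 100 bases had a median of -0.07, and 6 of them differed. Length and class run together, as most box H/ACA genes are over 100 bases and most box C/D genes are not. The box C/D genes over 100 bases, Snord15b (-0.73), Snord118 (-0.73), Snord22 (-0.53) and Snord15a (-0.50), were all lower. Snord35b, the called box C/D gene, has 87 bases. Class and length overlap in most of these genes, and which of them goes with the change was not tested. Per the labels' protocols the RNA had been passed through a spin column and copied with random hexamers; what these steps contributed was not tested.

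Host transcripts had changes near 0. Of the 64 small RNAs, 30 lie inside a measured gene of RefSeq's table, on either strand, which gives 26 distinct hosts. Their median change was -0.04, from -0.17 to 0.13, and none passed the test (limma). An unadjusted p under 0.05 was found in 2 of them, against 9.72% of all genes. Among the called small RNAs, Snora3 lies in Rpl27a (0.01 ± 0.06), Snora21 in Rpl23 (-0.04 ± 0.05) and Snora23 in Ipo7 (-0.03 ± 0.12). Many ribosomal protein genes have near-identical copies, which adds uncertainty to their host values. Snhg12 and Snhg3 had no value here. Ribosomal protein genes as a list stood at a median of -0.03 (61 measured, 1 higher and 4 lower at an unadjusted p under 0.05), and 23 genes of ribosome biogenesis at -0.06 (1 lower), with none called in either list.

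All 10 called genes of the 64 had their lowest mean of the 6 times at 34 h and a higher mean at 40 h. They had been called for low values on the arrays of 34 h, which itself favours both traits. Snora44 had means of 9.54 ± 0.11 and 9.68 ± 0.40 (SD, n = 3) at 26 and 30 h. From 8.35 ± 0.30 at 34 h it went to 9.05 ± 0.14 at 40 h. Rnu5g did not come back as far, with means of 8.41, 6.65 and 7.10 at 30, 34 and 40 h. The median over the 64 genes was 8.97, 8.94 and 8.82 on the arrays of 40 h and 8.77, 8.70 and 8.66 on those of 46 h, so 46 h lay between 34 h and 40 h. The steps to and from 34 h share the arrays of 34 h.

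The clock genes that fell were a period repressor and a D-box factor. Of 11 measured clock repressors 1 was called, Per3, and of 3 D-box activators 1, Tef, against 0.0752% of all genes called lower. At an unadjusted p under 0.05, 6 and 2 were lower and none was higher. Over all genes 3.15% were lower and 6.57% higher at that p. The medians of these lists were -0.17 and -0.49. RefSeq promoters, from 250 bases before to 50 after each annotated start on assembly GRCm38.p6, are shown for both called clock genes because each holds a clock element. Capitals mark the D-box (TTATGTAA) in Per3 and the E-box (CACGTG) in Tef. The D-box, searched on both strands as TTATGTAA or TTATGCAA, occurs in 1.66% of 32851 such windows and the E-box in 7.15%. The Per3 window is chr4:151044616-151044915 on the minus strand, with D-boxes starting at -205 and -158 from the start. Tef has 2 annotated starts, chr15:81802423-81802722 and chr15:81811164-81811463 on the plus strand, with E-boxes starting at -127 and -138.
Per3 promoter: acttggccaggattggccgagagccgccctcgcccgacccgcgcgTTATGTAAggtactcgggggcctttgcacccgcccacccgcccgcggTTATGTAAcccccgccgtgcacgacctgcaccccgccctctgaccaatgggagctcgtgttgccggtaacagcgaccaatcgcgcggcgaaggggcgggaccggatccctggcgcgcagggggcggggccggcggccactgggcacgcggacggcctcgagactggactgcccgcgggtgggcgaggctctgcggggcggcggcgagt
Tef promoter, first start: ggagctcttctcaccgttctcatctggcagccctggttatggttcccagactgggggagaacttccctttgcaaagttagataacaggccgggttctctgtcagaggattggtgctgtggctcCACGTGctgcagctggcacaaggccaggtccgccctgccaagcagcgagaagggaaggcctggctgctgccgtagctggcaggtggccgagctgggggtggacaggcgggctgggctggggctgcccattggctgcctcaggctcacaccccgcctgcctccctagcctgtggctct
Tef promoter, second start: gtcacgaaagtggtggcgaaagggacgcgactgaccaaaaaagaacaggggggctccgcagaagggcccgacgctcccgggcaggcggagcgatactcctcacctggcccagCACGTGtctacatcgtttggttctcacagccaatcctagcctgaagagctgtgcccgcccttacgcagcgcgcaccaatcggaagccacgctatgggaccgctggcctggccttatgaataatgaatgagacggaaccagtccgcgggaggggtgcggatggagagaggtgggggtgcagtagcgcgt
A promoter was listed for 17 of the 19 measured clock genes. These windows held an E-box in 5 genes (Bhlhe41, Ciart, Cry1, Per1 and Tef) and a D-box in 2 (Per1 and Per3). The ROR element core TAGGTCA, found in 2.61% of all windows, was in 2 (Arntl and Nfil3). A match of letters describes the window and is not a bound site.

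Per3 (probe set 10518781) was at 8.37, 8.37 and 8.94 at 30 h and at 7.74, 7.77 and 7.77 at 34 h. The arrays of 34 h were nearly equal, and replicate 3 of 30 h stood above the other arrays of its time. The change was -0.81 ± 0.14 (SE) log2, or 0.572-fold (adjusted p = 0.0388, limma). Tef was at 9.49, 9.46 and 9.78 and then at 9.06, 9.10 and 9.12, again with replicate 3 of 30 h the highest. It fell by 0.49 on the log2 scale (adjusted p = 0.0388, limma). Dbp, the gene of another D-box factor, had the same arrangement, with 9.54, 9.51 and 9.87 before and 9.09, 9.03 and 9.0 after the step. Its difference of -0.60 ± 0.11 did not pass (adjusted p = 0.0532, limma). Hlf differed by -0.06 ± 0.07. Without replicate 3 of 30 h the change of Per3 was -0.62 and that of Tef -0.39. Both calls were lost without any 1 of the 6 arrays (adjusted p from 0.0557 to 0.153 for Per3 and to 0.171 for Tef), and also with a constant of 1, with the replicate block and with only the arrays compared.

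Per3 and Tef differed from the small RNAs in what came after. Per3 went from 8.56 ± 0.33 (SD, n = 3) at 30 h to 7.76 ± 0.02 at 34 h and had its lowest mean, 7.22 ± 0.20, at 40 h. Tef stood at 9.58, 9.09 and 8.96 and Dbp at 9.64, 9.04 and 8.71 at these 3 times, so that for all 3 genes the lowest mean was that of 40 h. These steps share the arrays of 34 h.

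Other arms of the loop were lower or higher by amounts that did not pass. The cryptochrome genes Cry2 (-0.29 ± 0.06, adjusted p = 0.132) and Cry1 (-0.19 ± 0.05, adjusted p = 0.204) and the period gene Per2 (-0.29 ± 0.07, adjusted p = 0.213) each had arrays of 34 h wholly below those of 30 h. Cry1 was at 8.48, 8.49 and 8.54 at 30 h and at 8.35, 8.27 and 8.30 at 34 h, a small difference beside a small spread. Per1, by contrast, differed by -0.01 ± 0.09. The receptor gene Nr1d2 was lower by -0.51 ± 0.14 (adjusted p = 0.245), while its relative Nr1d1 differed by -0.08 ± 0.16; both had their lowest mean at 34 h. Bhlhe41, Bhlhe40 and Ciart, which encode further repressors, differed by -0.15, -0.17 and -0.17, and Nfil3, a repressor acting on D-boxes, by 0.00 ± 0.07. On the activating side Arntl was at 9.47, 9.47 and 9.22 at 30 h and at 9.74, 9.62 and 9.57 at 34 h. It was the only one of 5 measured activators with an unadjusted p under 0.05, and its difference of 0.26 ± 0.10 did not pass (adjusted p = 0.421). Its lowest array at 30 h was replicate 3, the array on which Per3, Tef, Dbp and Nr1d2 (10.61, against 10.00 and 10.01) were highest. Clock, Arntl2, Rora and Rorb differed by 0.11, -0.07, -0.04 and 0.03. Of 11 clock kinase and ubiquitin ligase genes none had an unadjusted p under 0.05 (median -0.03), and of 16 clock output genes 2 were lower (median -0.01).

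**Figure D3:**
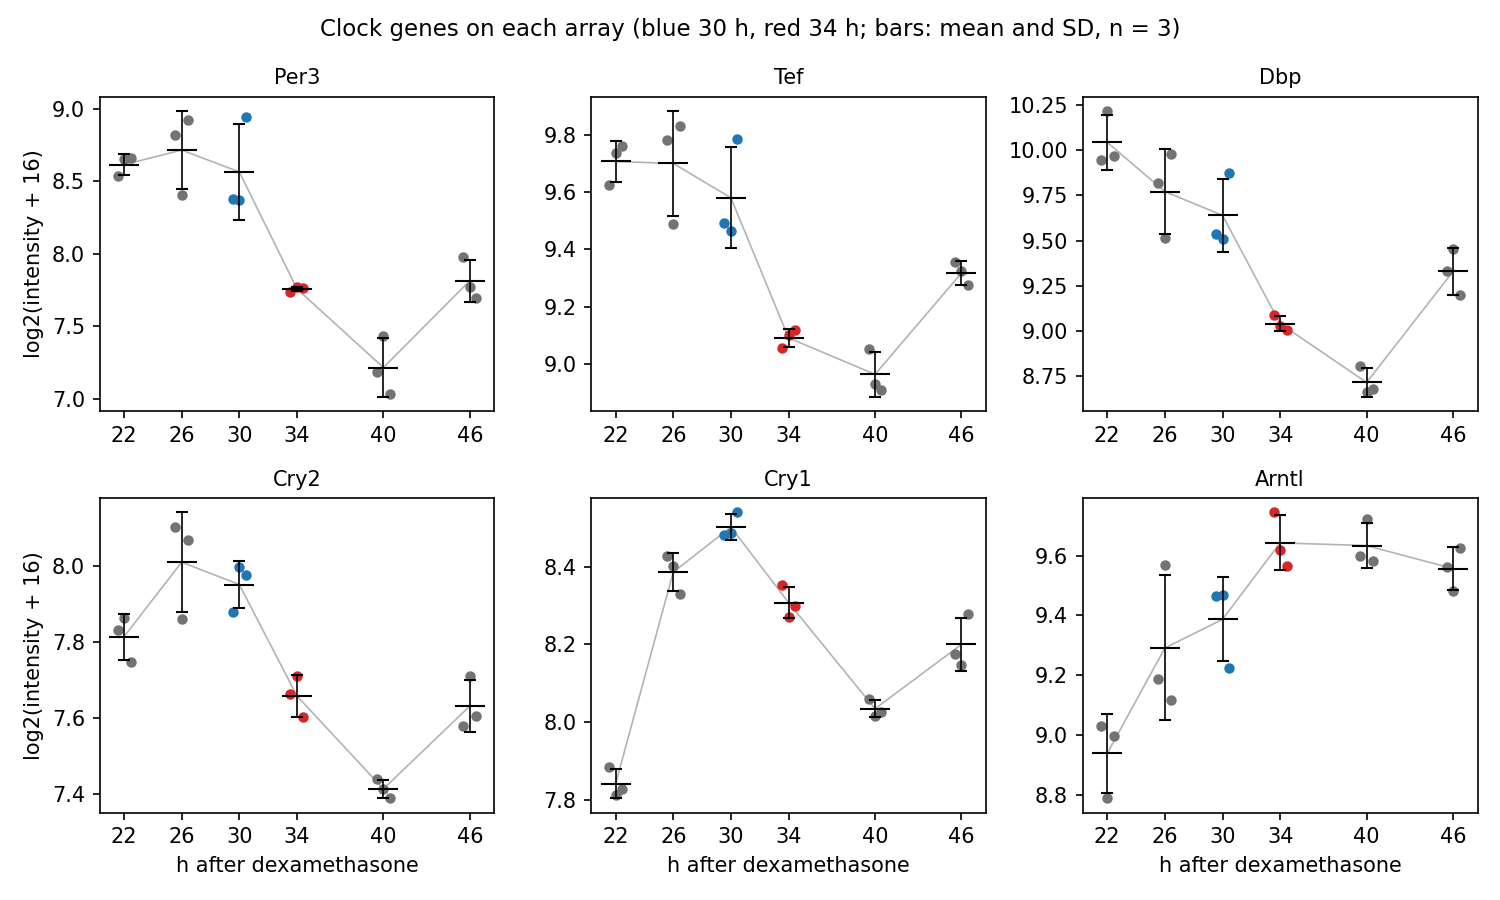
Levels (y axis, log2(intensity + 16)) of 6 clock genes at 22 to 46 h after dexamethasone (x axis); each point is 1 array, blue at 30 h and red at 34 h, with the mean and SD of 3 arrays as bars. Per3, Tef and Dbp have 1 high array at 30 h, replicate 3, and their lowest mean at 40 h, and Arntl has its highest mean at 34 h.

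A minority of the genes of protein folding in the endoplasmic reticulum were higher at 34 h. In the unfolded protein response list, with 19 genes measured, 2 rose and none fell, against 0.015% of all genes called higher. A positive change was found in 16, against 53.4% of all genes, with a median of 0.11 log2 (0.01 over all genes). At an unadjusted p under 0.05, 8 were higher and none lower, against 6.57% and 3.15% of all genes. The median level over the 19 genes was between 10.91 and 10.93 on the arrays of 30 h and between 10.93 and 10.98 on those of 34 h, a small shift. Sdf2l1, a cofactor of chaperones in that compartment, was at 9.52, 9.60 and 9.66 at 30 h and at 9.85, 9.91 and 9.95 at 34 h. The gap between the groups was wider than the spread in either, and the gene rose by 0.31 ± 0.06 (SE) log2, or 1.24-fold (adjusted p = 0.0388, limma). Xbp1, the transcription factor gene of this response, was at 11.26, 11.30 and 11.31 and then at 11.53, 11.53 and 11.62. It rose by 0.27 ± 0.05 (adjusted p = 0.0388, limma). These array values do not separate the spliced form of Xbp1 from the unspliced one.

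Kdelr3, a receptor that returns escaped proteins from the Golgi to the endoplasmic reticulum, rose by 0.30 ± 0.05 (adjusted p = 0.0437, limma). Its levels were 10.90, 10.89 and 10.81 at 30 h and 11.16, 11.18 and 11.16 at 34 h. The arrays of 34 h were again almost equal. Kdelr1, its relative, differed by -0.04 ± 0.05. Kdelr3 belongs to a list of 41 genes of transport between the endoplasmic reticulum and the Golgi that was drawn up after values had been seen. In this list 3 genes were higher at an unadjusted p under 0.05, near the 6.57% of all genes, and none lower, with a median of 0.03. All 3 calls were lost without any 1 of the 6 arrays (adjusted p up to 0.226), with changes from 0.24 to 0.34. They were also lost with a constant of 1 in place of 16 (adjusted p from 0.0545 to 0.0566, limma), with the replicate number as a block (0.0799 to 0.0985) and with only the 6 arrays compared. Sdf2l1 was lost with the values as deposited and with centred medians too (0.0514 and 0.0692).

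The promoter of Kdelr3 (chr15:79516158-79516457, plus strand, GRCm38.p6, RefSeq) is shown because it holds the core of the element that XBP1 is known to bind. Capitals mark the letters TGACGTGG, here read on the minus strand, from -30 on. This core, which overlaps the CCACG part of the stress element described next, is in 0.676% of all windows.
Kdelr3 promoter: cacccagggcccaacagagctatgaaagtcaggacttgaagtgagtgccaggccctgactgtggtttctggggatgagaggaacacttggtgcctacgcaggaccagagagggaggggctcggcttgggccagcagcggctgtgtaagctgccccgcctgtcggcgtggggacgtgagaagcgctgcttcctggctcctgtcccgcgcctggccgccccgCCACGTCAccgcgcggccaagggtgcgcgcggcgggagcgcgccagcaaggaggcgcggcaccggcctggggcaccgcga
The endoplasmic reticulum stress element, CCAAT and CCACG with 9 bases between them, was searched on both strands and occurs in 0.119% of windows. It was found in 7 of the 17 unfolded protein response genes with a listed promoter: Calr, Canx, Creld2, Dnajc3, Hsp90b1, Hspa5 and Pdia6. Their changes ran from -0.01 ± 0.06 (Canx) and 0.00 ± 0.06 (Hsp90b1, slightly negative) to 0.24 ± 0.08 (Creld2) and 0.25 ± 0.06 (Hspa5). The windows of Sdf2l1 and Xbp1 held neither the core TGACGTGG nor the full element with 9 bases between its parts. CCAAT without that partner does occur in the window of Sdf2l1.

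Other members were higher without passing. Manf, a secreted stress protein, was at 10.18, 10.19 and 9.97 and then at 10.27, 10.41 and 10.47 (0.27 ± 0.07, adjusted p = 0.212). Hspa5, which encodes BiP, was at 12.12, 12.16 and 12.29 and then at 12.44, 12.41 and 12.47 (0.25 ± 0.06, adjusted p = 0.213). Neither pair of groups overlapped. Dnajb9, Hyou1 and Edem1, which aid folding or the removal of misfolded proteins, were higher by 0.20, 0.17 and 0.10. Pdia3, Pdia6, Calr and Sel1l differed by 0.04, 0.04, 0.06 and 0.06, and Ddit3, which encodes the death-linked factor CHOP, by 0.01 ± 0.06. The 16 measured genes of the ATF4 and amino acid response had a median of -0.01, with 1 higher at an unadjusted p under 0.05 (Trib3, 0.21), and Atf4 itself differed by 0.01 ± 0.05. For the called genes Sdf2l1, Kdelr3 and Xbp1 the means of later times lay above that of 30 h. They had been called for low values at 30 h beside those of 34 h, which itself favours this. Over the whole course the lowest mean was that of 30 h in Sdf2l1 and Kdelr3 and that of 22 h in Xbp1. All these comparisons share the arrays of 30 h, and whether the rises lasted was not tested. Sdf2l1 stood at 9.59, 9.90, 9.84 and 9.93 at 30, 34, 40 and 46 h, Kdelr3 at 10.87, 11.17, 11.27 and 11.31, and Xbp1 at 11.29, 11.56, 11.47 and 11.55.

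**Figure D4:**
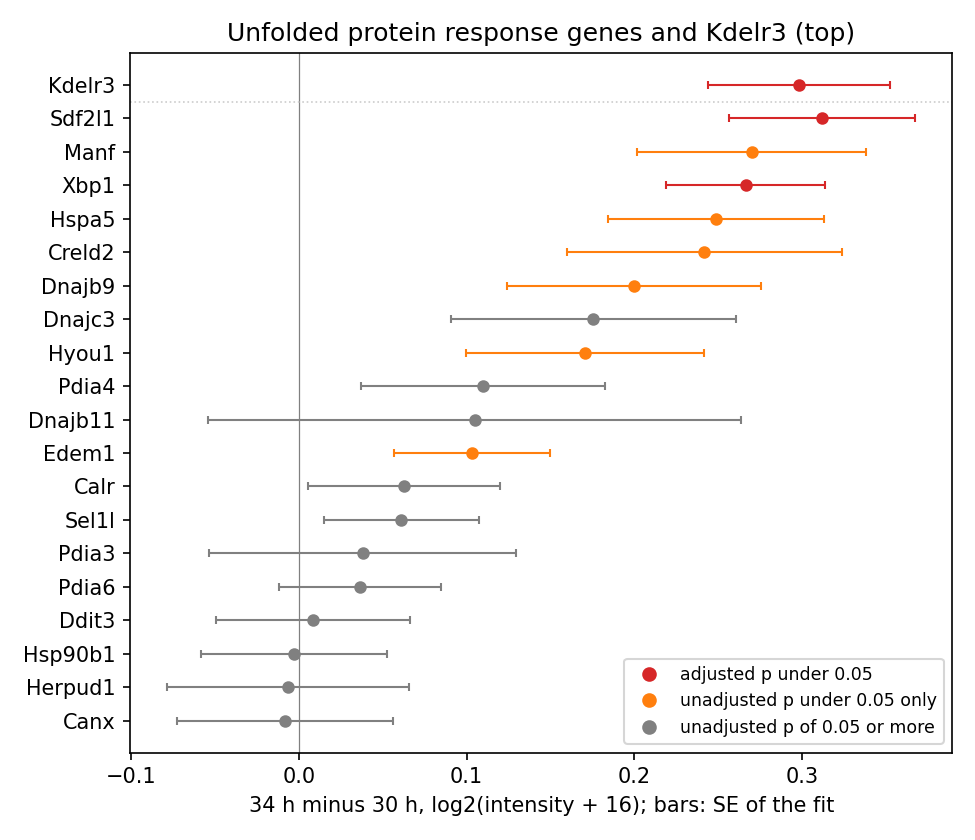
Change from 30 h to 34 h (x axis, log2(intensity + 16), bars the SE of the fit) of 19 unfolded protein response genes and, on top, Kdelr3. Sdf2l1, Xbp1 and Kdelr3 have an adjusted p under 0.05 (red) and 6 more an unadjusted one only (orange); Canx, Herpud1 and Hsp90b1 lie just below 0.

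The imprinted region from Dlk1 to Dio3, which holds a large cluster of microRNA genes expressed from the maternal chromosome, was lower in most of its genes. Of 48 measured, 42 had a negative change and 1 was called, Mir496a, with a median of -0.17. At an unadjusted p under 0.05, 21 were lower and 1, Dio3, was higher. Over all genes 3.15% were lower and 6.57% higher at that p, and 0.0752% were called lower. Among the 40 microRNA genes of the region 36 were negative and 20 lower, with a median of -0.21. Among 260 microRNA genes elsewhere the median was 0.01, with 22 higher and 17 lower. The genes of the cluster are thought to share 1 long transcript, so they are not independent of each other. Mature sequences from RefSeq (GRCm38.p6) are shown for both arms of the called gene and for the arms that share a seed, of which there were 2 pairs among the 76 mature sequences listed for all 40 genes. Capitals mark the seed, bases 2 to 8. The arms of Mir496a lie at chr12:109739132-109739152 and chr12:109739165-109739186 on the plus strand.
mmu-miR-496a-5p: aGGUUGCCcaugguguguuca
mmu-miR-496a-3p: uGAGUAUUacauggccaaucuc
mmu-miR-376b-5p: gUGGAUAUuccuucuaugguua
mmu-miR-376c-5p: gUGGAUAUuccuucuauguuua
mmu-miR-411-3p: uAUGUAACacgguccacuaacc
mmu-miR-379-3p: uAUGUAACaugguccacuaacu
The change was -0.45 ± 0.09 for Mir376b and -0.31 ± 0.12 for Mir376c, whose 5p arms share a seed. It was -0.47 ± 0.12 for Mir411 and -0.46 ± 0.18 for Mir379, whose 3p arms do. None of these 4 passed. Array probes cover the gene or its precursor, and a level here is not that of the mature microRNA.

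Mir496a was dim, at 7.47, 7.46 and 7.57 at 30 h and 7.25, 7.26 and 7.05 at 34 h. The groups did not overlap, and it fell by 0.31 on the log2 scale (adjusted p = 0.0472, limma). The call was lost without any 1 of the 6 arrays (adjusted p from 0.0601 to 0.216), with a constant of 1 and with the replicate block. Mir376b was at 7.41, 7.38 and 7.65 and then at 7.10, 6.93 and 7.08, which did not pass (adjusted p = 0.102, limma). Of the long non-coding RNA genes of the region, Rian differed by -0.22 ± 0.10 and Meg3 by -0.13 ± 0.09. The protein genes Dlk1 and Rtl1 differed by -0.09 ± 0.06 and 0.02 ± 0.06, and Dio3, which encodes a deiodinase of thyroid hormone, by 0.37 ± 0.09. Olfr1443, the remaining called gene, was at 6.40, 6.43 and 6.44 and then at 6.17, 6.02 and 6.00 (-0.36 ± 0.06, adjusted p = 0.0381, limma); olfactory receptor genes as a class had a median of 0.00 over 1194 genes, with 39 higher and 41 lower at an unadjusted p under 0.05. Its call too was lost without any 1 of the 6 arrays, and in 5 other settings.

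Set against the equally long step from 22 h to 26 h, with which it shares no array, the step from 30 h to 34 h differed in 108 genes (0.542%, adjusted p under 0.05, limma), being the more positive in 69 (0.346%) and the more negative in 39 (0.196%). The step from 22 h to 26 h itself called 436 genes (2.19%). Genes of cell division made up much of the first group. Of 36 measured G2/M and mitosis genes 24 were called as more positive and none as more negative. Their median change was -0.67 from 22 h to 26 h and -0.04 from 30 h to 34 h, where none had an unadjusted p under 0.05. Aurka, a kinase of spindle assembly, was at 10.20, 10.07 and 10.23 at 22 h and at 9.50, 9.30 and 9.52 at 26 h. In the later step it was at 9.37, 9.37 and 9.33 and then at 9.34, 9.47 and 9.37. It fell in the earlier step and its levels overlapped in the later one (difference of the steps 0.76 ± 0.09, adjusted p = 0.00115, limma). Genes of G1/S and replication showed no called difference between the steps in 36 measured; their medians were -0.32 and then -0.10, with 5 lower, among them Pcna (-0.22 ± 0.06), at an unadjusted p under 0.05 in the later step.

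The clock showed the smallest p of this comparison. Cry1 was at 7.88, 7.81 and 7.83 at 22 h and at 8.43, 8.40 and 8.33 at 26 h, a rise of 0.54, against the lower values from 30 h to 34 h given above. The difference of the steps was -0.74 ± 0.07 (SE, adjusted p = 8.37e-05, limma). Cry2 also differed (-0.49, adjusted p = 0.0216), with changes of 0.20 and then -0.29. Nr1d1 fell by 1.13 on the log2 scale from 22 h to 26 h and differed by -0.08 from 30 h to 34 h (difference 1.05, adjusted p = 0.0429). For Per3 (-0.91, adjusted p = 0.0577) and Tef (-0.48, adjusted p = 0.0999) the steps were not called as different. Of the small RNAs Snora44 (-1.62), Snora16a (-1.31) and Rnu5g (-1.79) were more negative in the later step; of the secretory genes Kdelr3 was more positive (0.36). Single arrays moved the count of 108, which was 23 without replicate 3 of 22 h and 256 without replicate 2 of 22 h. It was 52 without replicate 1 of 22 h or replicate 2 of 26 h, 40 without replicate 1 of 30 h or replicate 2 of 34 h, 55 and 39 without replicates 2 and 3 of 30 h, and 51 without replicate 1 of 34 h.

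**Figure D5:**
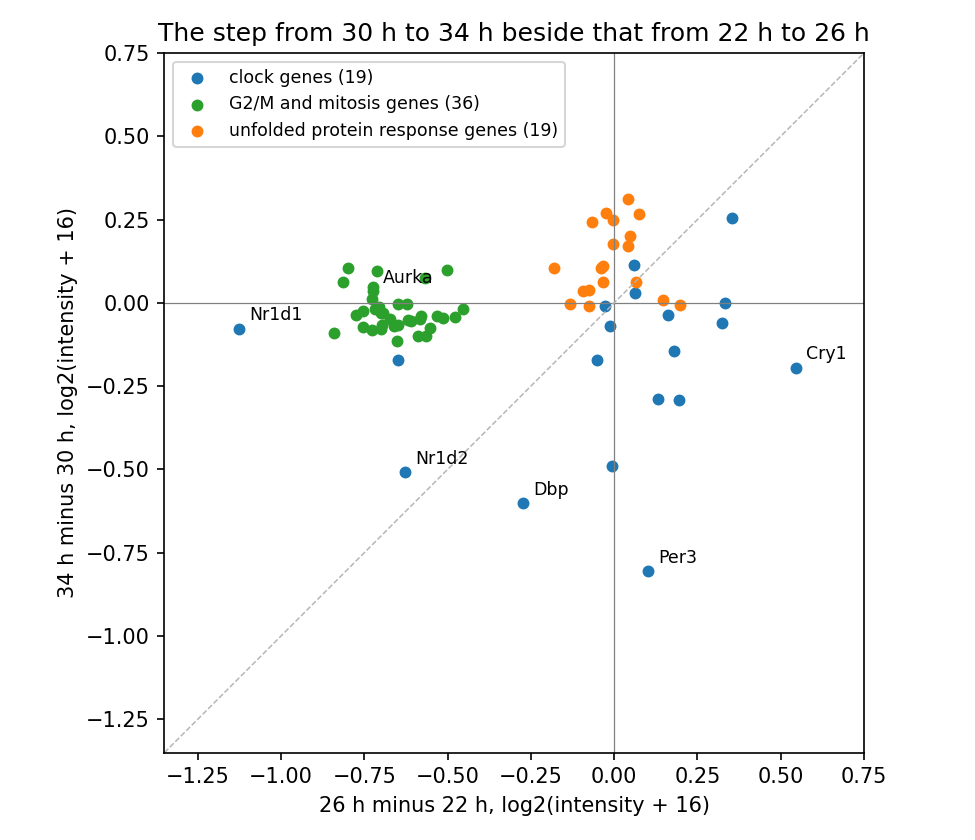
Change from 22 h to 26 h (x axis) and from 30 h to 34 h (y axis), both in log2(intensity + 16), of 19 clock, 36 G2/M and 19 unfolded protein response genes; the dashed line marks equal steps. The G2/M genes lie near 0 on the y axis with a median of -0.67 on the x axis, Cry1 lies to the right below 0, and Per3 has the lowest value on the y axis.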

How the data were processed

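Per the labels' protocols, each sample's total RNA was copied with Affymetrix whole-transcript kits and put on 1 array. The deposited table gives a linear intensity for each probe set. The submitters' processing notes name PLIER 2.0 and Affymetrix Expression Console 1.1, with settings not given in the sources used here. Of 35556 probe sets, 21789 had 1 gene symbol in the platform annotation, 1621 several and 12146 none here. By gene identifier 21698 matched RefSeq (GRCm38.p6), used for names and neighbours. The highest-mean probe set was kept for each of 19938 genes (999 had several). Values were taken as log2(intensity + 16), which understates the change of dim genes, and quantile normalized. In R 4.3.3 with limma 3.58.1, means of the 6 times were fitted to all 18 arrays (lmFit, eBayes); contrasts were 34 h minus 30 h, and that step minus the step from 22 h to 26 h. Benjamini-Hochberg adjustment ran over all genes, and an adjusted p under 0.05 was a call. No column was left unused.

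Members and gene lists were chosen with earlier results of these data known, and lists are described by counts and medians without a test. Genes named are all measured clock genes; the 15 largest called rises and falls, filled up by the smallest unadjusted p; up to 4 called members of each list, or the 1 with the smallest p; and the 5 smallest p of the difference of the steps. Other genes named were chosen after their values were seen: Olfr1443, further small RNAs and hosts, further unfolded protein response genes, and genes of the Dlk1 to Dio3 region. On simulated arrays with 50 genes changed at each size among 19938, the comparison of 34 h with 30 h called 36% of changes of 0.25 and 98% of 0.5 log2, and 7 of 173 calls were unchanged genes. For the difference of the steps it was 6% and 66%, with 10 of 142. The simulated noise was independent between genes. On the real arrays 1 component held 33.8% of the spread within times, so these rates may not carry over. Figures were drawn with matplotlib.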

Additional observations from a re-analysis of the deposited data

Results flagged for a closer look

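A difference between the step from 30 h to 34 h and the step from 22 h to 26 h was called by limma in 108 genes, and the genes named here among them are given as the later step minus the earlier one, in log2. The clock genes were Cry1 (-0.74), Cry2 (-0.49) and Nr1d1 (1.05). The genes of mitosis were Aurka (0.76), Fam83d (0.74), Tacc3 (0.67) and Ube2c (0.60), all of which were lower at 26 h than at 22 h by 0.50 log2 or more, with 34 h minus 30 h between -0.05 and 0.10. The small RNA genes were Snora44 (-1.62), Snora16a (-1.31) and Rnu5g (-1.79), and those of the region from Dlk1 to Dio3 were Mir496a (-0.43), Mir376b (-0.69) and Dio3 (0.62). The other genes were Actg2, a smooth muscle actin (0.57), Rab44 (0.51), Acss2, an acetyl-CoA synthetase (-0.52), Cstdc6 (0.79), the proteasome gene Psmd7 (0.45) and Kdelr3 (0.36). What sets the steps apart was not tested.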

How the results depend on the processing

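The 18 calls and the 108 for the difference of the steps moved with the settings. At an adjusted p under 0.01 the counts were 2 and 13, and under 0.10 the difference of the steps gave 215. With limma array weights they were 40 and 1589, and with only the arrays compared 0 (2054 at an unadjusted p under 0.05, limma) and 65. Without small RNA genes, a setting added after seeing the data, the 18 became 0 (1901 at an unadjusted p under 0.05, limma). Leaving out 1 array gave 2 to 13 and 23 to 256. With the replicate number as a block they were 9 and 54; the labels do not say that numbers pair samples, and deviations of same-numbered arrays correlated between -0.2 and 0.11 at 30 h and 34 h and between -0.56 and 0.49 over all times, so the numbers were not taken as pairs. The 3303 genes without overlap became 1694 without the dimmer genes, those under the median of mean level. Normalization, constant added, the filters, the variance model and all probe sets left the 18 between 12 and 22; with a constant of 1 the 12 were all lower at 34 h, and none of the 3 rises passed.

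Of 1334 pairs of a named gene and a setting, 1169 kept direction and side of the threshold, 115 lost the call, 29 gained it and 21 changed sign. All 18 called genes kept their direction in every setting that held them. Changes of sign came only in genes near 0. With the values as deposited Fam83d was at -0.0129 and Nfil3 at -0.0205, with centred medians at -0.00775 and -0.0153, and Nfil3 with a constant of 64 at -0.000128. With array weights Nfil3 was at -0.0411 and Per1 at 0.00841. With 1 array left out the range was -0.0178 to 0.0653 for Fam83d, -0.0638 to 0.0726 for Nfil3, -0.0426 to 0.0176 for Per1, -0.152 to 0.00597 for Nr1d1, -0.0661 to 0.00226 for Rora, -0.0300 to 0.0748 for Rorb and -0.00405 to 0.0605 for Aurka. The number of arrays limits all values, and changes of 0.25 log2 were mostly missed in simulated data.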

Other observations

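No gene of the matrix and contractile lists was called. The counts below stand beside shares over all genes of 53.4% with a positive change. At an unadjusted p under 0.05 these shares were 6.57% higher and 3.15% lower. Of 18 collagen genes 17 had a positive change and 3 were higher at an unadjusted p under 0.05, with a median of 0.06; Col4a2, a basement membrane collagen, was higher by 0.30 ± 0.11 (adjusted p = 0.403, limma). Of 30 other matrix and matricellular genes 19 had a positive change, and 2 were higher and none lower at that p (median 0.03), a share near the 6.57% higher among all genes. Of 16 smooth muscle and contractile genes 5 were higher and none lower (median 0.07), led by Actg2 (0.26 ± 0.06, adjusted p = 0.187). Of 45 histone genes 8 were higher and 1 lower (median 0.09), with H1f6 at 0.27. Of 25 inflammatory and secreted genes 5 were higher and none lower (median 0.00), among them Lcn2, an iron-binding secreted protein (0.20). Of 22 glucocorticoid-induced genes 3 were higher and 1 lower (median 0.03); Tsc22d3, a direct target of the glucocorticoid receptor, differed by -0.13 ± 0.06. Heat shock genes included Hspa1a at 0.31 ± 0.07 (adjusted p = 0.187), with 1 of 13 higher. Proteasome genes had 4 of 39 higher (median 0.00). Among the lists with medians within 0.05 of 0 and at most 2 genes past that p in either direction were those of cholesterol and fatty acid synthesis, glycolysis, interferon, p53 targets, YAP and SRF targets, TGF-beta feedback, immediate early genes and regulators of G1.

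The genes higher at 34 h with the smallest p short of a call included Apcs, the serum amyloid P gene (0.38 ± 0.07, adjusted p = 0.0625), Rab44 (0.31), Pvalb (0.27), Tmem50b (0.27), Rmi2 (0.30), Rab27a (0.23), Myh14 (0.24), Piwil1 (0.27), Cfap58 (0.27), Cfi (0.25), C1ql4 (0.29) and Cstdc6 (0.49). None of these 12 passed (adjusted p from 0.0625 to 0.136, limma). All but Tmem50b and Rab44 had mean levels below the 8.07 that was the median of all genes, as did the marker lists of other cell types.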
